A study of Mus musculus with 30 samples.

Results

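Nicotinamide adenine dinucleotide (NAD) synthesis genes and sirtuins were followed across single fast fibres of mouse muscle in which the mitochondrial calcium uniporter, MCU, had been raised or silenced. The set held 7 genes: Nmrk2, Nampt, Nmnat1, Nmnat3, Sirt1, Sirt3 and Sirt5. They were taken by the gene name printed in the scanner output, where Nmrk2 appears under its older symbol Itgb1bp3. Each gene had 1 probe and 1 spot on the array, and all 7 were among the 23342 genes tested. Nmrk2 entered the set because it was lower with the MCU vector than in wild type fibres, so for Nmrk2 every comparison with those wild type fibres is given as a description with no test.

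Male CD1 mice were injected at 8 weeks of age in a fast muscle of the lower leg, the extensor digitorum longus (EDL). Adeno-associated virus (AAV) was given along its length, and fibres were collected 7 or 14 days later and put singly on 30 one-colour Agilent arrays. The 4 kinds of fibre were uninjected wild type, MCU vector (AAV carrying MCU), silencing vector (AAV directed against MCU) and control vector. Titles call the control AAVshLuc, while another label says that the virus had no cloned insert, and this conflict was not settled. Every kind had 4 fibres at each day, except that the MCU vector and the silencing vector had 3 at day 7. Injected fibres were picked by their ZsGreen fluorescence, and only those in which a PCR test of part of the RNA showed the intended change of MCU were amplified, so the level of Mcu on the arrays is no independent check. The labels do not say which fibres came from which animal, and every p-value therefore measures the spread between fibres. If fibres of a group shared an animal, they would not be independent, and these p-values could be too small.

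NAD carries electrons in energy metabolism and is also consumed by enzymes that cut it, so cells rebuild it through salvage. Nampt joins nicotinamide to a ribose phosphate to give nicotinamide mononucleotide, and the nicotinamide riboside kinases, of which Nmrk2 is the muscle-enriched form, reach the same intermediate from nicotinamide riboside. Nmnat1 in the nucleus and Nmnat3 in mitochondria complete the molecule. Sirtuins use NAD to strip acyl groups from proteins: Sirt1 is mainly nuclear and deacetylates regulators such as the protein of Ppargc1a, Sirt3 is the main mitochondrial deacetylase and Sirt5 a mitochondrial desuccinylase.

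The probes are 60 bases long, and the file headers place them on the mm9 build. Nmrk2 was read at chr10:80662033-80662092 and Sirt1 at chr10:62781827-62781886, both on the minus strand. Nampt was read at chr12:33535475-33535534, Nmnat3 at chr9:98311751-98311810 and Sirt5 at chr13:43490351-43490410, on the plus strand. Nmnat1 was read at chr4:148842959-148843018 and Sirt3 at chr7:148049581-148049640, on the minus strand. Which exon or untranslated region each probe lies in was not analysed here. The first 30 bases of the probes for Nmrk2 and Sirt1, the members with the largest differences, are given because each gene's level rests on that oligonucleotide alone.
Nmrk2: ctggacagcagggcctgagatgttctgact
Sirt1: ggcatatgttttgtagaccgtttaatgact
The probe for Nmrk2 had 55.0% G and C and that for Sirt1 35.0%, within the range of 35.0% to 55.0% over the 7 probes.

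The 250 bases before the RefSeq start sites of Nmrk2 and Sirt1 (GRCm38.p6) are shown because both genes moved between the same groups of fibres. The window of Nmrk2 is chr10:81202038-81202287 and that of Sirt1 chr10:63339036-63339285, both read on the minus strand. Capitals mark matches to an E-box (CANNTG, bound by myogenic and clock factors), a nuclear receptor half-site (AGGTCA), a cyclic AMP response element (TGACGTCA) or a TATA box (TATAAA), searched on both strands.
Nmrk2: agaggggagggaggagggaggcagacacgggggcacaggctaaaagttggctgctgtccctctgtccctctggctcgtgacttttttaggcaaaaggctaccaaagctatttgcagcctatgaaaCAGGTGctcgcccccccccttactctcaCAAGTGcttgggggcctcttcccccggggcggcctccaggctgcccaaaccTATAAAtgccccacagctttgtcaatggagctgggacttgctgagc
Sirt1: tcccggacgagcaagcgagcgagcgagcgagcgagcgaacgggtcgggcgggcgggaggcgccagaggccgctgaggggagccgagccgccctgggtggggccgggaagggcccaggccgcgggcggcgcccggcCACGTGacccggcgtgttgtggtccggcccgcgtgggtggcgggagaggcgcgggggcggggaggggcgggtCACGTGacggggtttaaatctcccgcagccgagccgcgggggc
The Nmrk2 window held 2 E-boxes, whose first bases lie 125 and 97 bases before the start, and a TATA box at 46 bases. The Sirt1 window held 2 E-boxes, both CACGTG, at 115 and 43 bases, and no TATA box. E-boxes occur in 66.2% and TATA boxes in 12.4% of the 32851 windows of this length in the RefSeq table. The windows also differed in composition, with 5 CG pairs in that of Nmrk2 and 39 in that of Sirt1, beside a median of 6 over all windows. No cyclic AMP response element lay in the windows of any of the 7 genes (all windows: 1.55%), and a nuclear receptor half-site lay in those of Nampt and Sirt5 (all windows: 14.0%). A match is a string of letters and shows no binding.

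Values are log2 signals after the 75th percentile of each array was subtracted, so 1 unit is a doubling and 0 is the brightness of a fairly bright probe of the same array. A probe's brightness depends on its sequence, and levels are compared only between fibres, never between genes. All 7 members were well above background on all 30 arrays, except Sirt5, which was above it on 28. The 75th percentile ran from 83.2 to 138 and the share of probes well above background from 49.4% to 59.5%. Fibres of one group correlated at 0.951 to 0.984 over the genes tested. All 9 fast fibre markers were well above background in every group. Of 4 satellite cell markers, Myf5 and Calcr were below it on every array, but Pax7 and Vcam1 were not. Of 7 macrophage and myeloid markers, 5 to 7 were well above background on all arrays of a group. MCU vector fibres and wild type fibres of a given day shared a slide, as did silencing and control vector fibres, but wild type and control vector fibres were on different slides scanned on different days. Slide and group cannot be told apart in any comparison between those pairs of groups, nor between days. Wild type fibres were uninjected, so injection, virus and MCU cannot be told apart in MCU vector against wild type. Within a slide, treated and control fibres occupied different columns, and column and treatment cannot be told apart.

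Mcu itself lay between 3.09 and 3.6 in MCU vector fibres at day 7, against 2.47 to 2.92 in wild type, and between 5.87 and 6.66 at day 14, against 2.15 to 2.79. In silencing vector fibres it lay between -1.69 and 1.28 over both days, against 2.3 to 3.02 in control vector fibres. The Mcu excess of the MCU vector was 0.6 at day 7 and 3.9 at day 14, a change of 3.3 between days. Injected fibres were selected by their change of MCU, so these values are a description with no test.

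**Figure D1:**
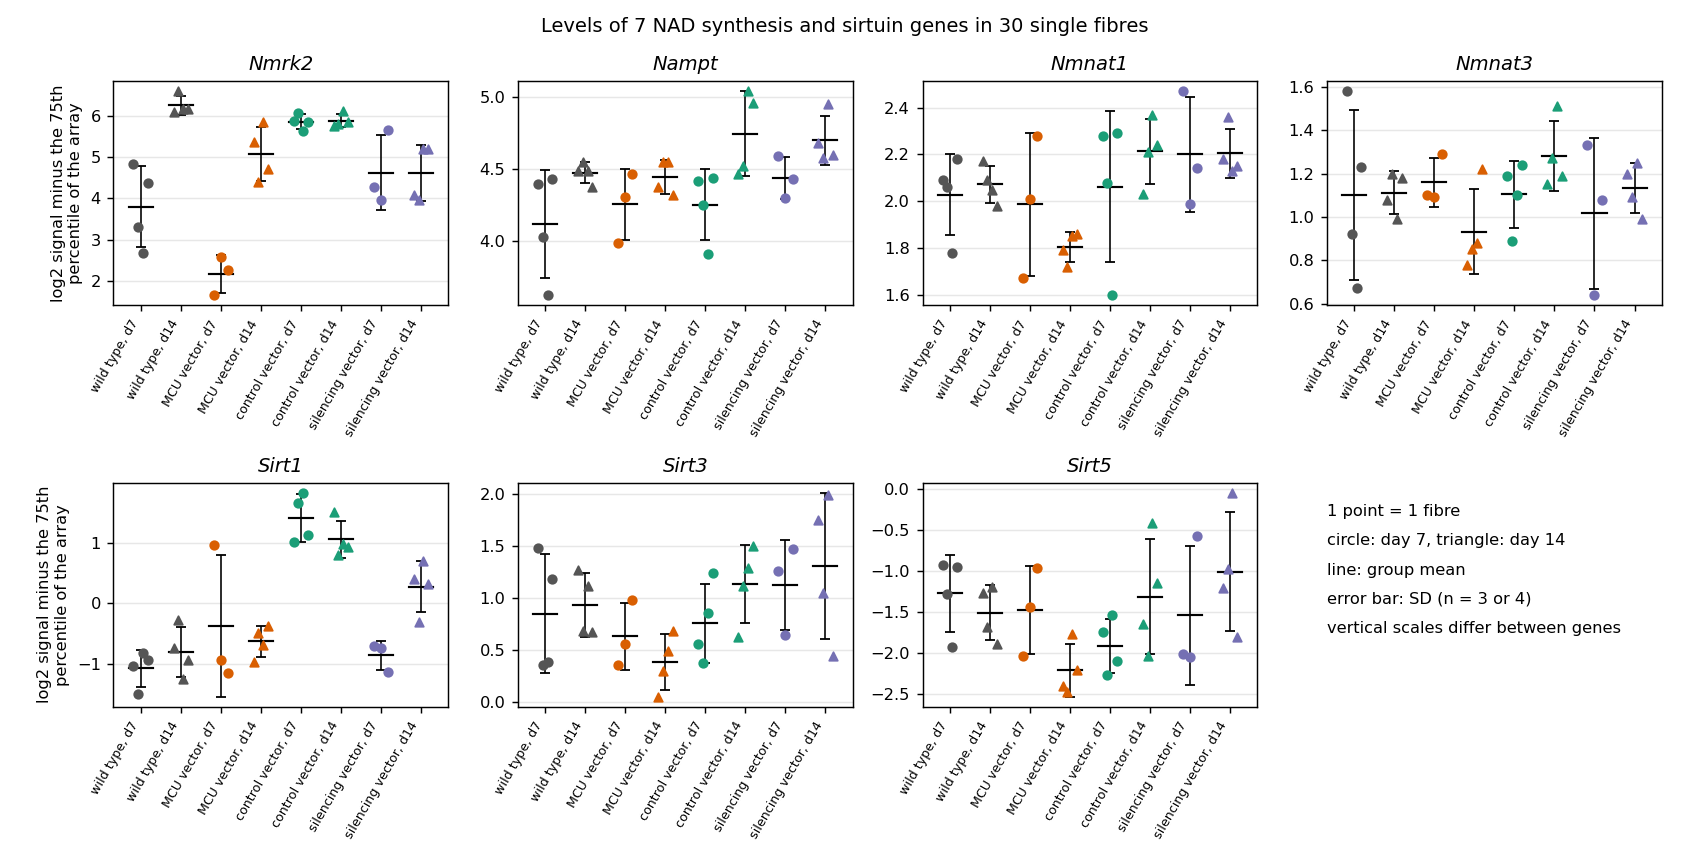
Level of each gene (vertical axis, log2 signal minus the 75th percentile of the array, with a scale of its own in each panel) in every fibre of the 8 groups (horizontal axis). Points are fibres, lines are means and bars are SD with 3 or 4 fibres. Nmrk2 spans the widest range, from 1.66 to 6.6, and Sirt1 is highest in the control vector fibres, between 0.8 and 1.82.

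Nmrk2 was lower in MCU vector fibres than in wild type fibres at both days and lower in silencing vector fibres than in control vector fibres over both days. The kinase makes nicotinamide mononucleotide from nicotinamide riboside. At day 7 the 4 wild type fibres had Nmrk2 levels of 4.84, 3.31, 2.67 and 4.38, and the 3 MCU vector fibres 1.66, 2.57 and 2.27. At day 14 the wild type fibres were at 6.09, 6.6, 6.17 and 6.16, and the MCU vector fibres at 5.37, 4.4, 5.85 and 4.71. Every MCU vector fibre was below every wild type fibre of its day. The difference of the means was -1.63 at day 7 and -1.17 at day 14, and their average of -1.4 is a 2.65-fold lower signal. These values chose the gene. Over all genes, 1.13% differed in this comparison in either direction (limma, Benjamini-Hochberg adjusted p under 0.05 over 23342 genes), and 0.557% were lower with no overlap at both days. The other 6 members were not called, and none of them had an unadjusted p under 0.05 over both days.

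The silencing comparison used other fibres than those that chose Nmrk2. At day 7 the control vector fibres had Nmrk2 levels of 5.88, 6.08, 5.63 and 5.86, and the silencing vector fibres 4.27, 3.95 and 5.65. At day 14 the control vector fibres were at 5.75, 5.81, 6.11 and 5.85, and the silencing vector fibres at 4.08, 3.97, 5.19 and 5.2. The control fibres lay close together, and the silencing fibres spread more widely below them. The groups did not overlap at day 14, as for 4.81% of all genes that were lower then, whereas at day 7 the silencing fibre at 5.65 stood just above the lowest control fibre. Nmrk2 fell with silencing by 1.25 over both days (SE 0.3, 95% interval -1.87 to -0.64, limma adjusted p = 0.007), or 2.38-fold. The difference was -1.24 at day 7 (adjusted p = 0.06) and -1.26 at day 14 (adjusted p = 0.084). At day 7 it passed the threshold in 4 of 15 other settings. These were values scaled to the median (-1.37), quantile normalized (-1.35), corrected by normexp (-1.34) or taken from the deposited series table (-1.35). It also passed in 1 of 7 fits without a fibre, that without the silencing fibre at 5.65 (-1.75, adjusted p = 0.02). The highest adjusted p of these 7 fits was 0.25. At day 14 it passed in 0 of 15 settings and in 0 of 8 fits without a fibre. Of 26 measured markers of other cells, 3 were called higher and 1 lower with silencing, and of 6 slow fibre markers 1 was called lower. Over all genes 8% were called higher and 6.1% lower in this comparison. The part of these markers in the result was not tested.

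Sirt1 was the other member that fell with silencing. At day 7 the control vector fibres had Sirt1 levels of 1.01, 1.66, 1.82 and 1.13, and the silencing vector fibres -0.7, -0.73 and -1.13. At day 14 the control vector fibres were at 1.5, 0.8, 0.98 and 0.93, and the silencing vector fibres at 0.4, -0.31, 0.69 and 0.32. Every silencing fibre was below every control fibre of its day. Over both days Sirt1 fell by 1.52 (SE 0.24, 95% interval -2.01 to -1.02, limma adjusted p = 2.4e-04), or 2.86-fold. Under the 15 other settings this difference ran from -1.65 to -0.98. The difference was -2.26 at day 7 (adjusted p = 2.2e-04, 13.4% of all genes called) and -0.78 at day 14 (adjusted p = 0.20), and the change between days, 1.48 with SE 0.48, did not pass (adjusted p = 0.082). Within the silencing vector, Sirt1 was 1.13 higher at day 14 than at day 7 (SE 0.35, adjusted p = 0.047), where 8.47% of all genes were called.

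Of the 7 members, 2 were called lower and 0 higher with silencing, where 14.1% of all genes were called and 6.1% were called lower. Lower with no overlap at both days held for 1 member, Sirt1, and for 1.22% of all genes. The median difference of the members was 0.07, beside 0.04 over all genes. A second scaling moved the whole comparison: of all genes called, 56.7% were higher in the main values, 25.1% with median scaling and 74.5% with the 75th percentile over probes detected on all arrays, as the median of all genes went from 0.04 to -0.08 and 0.11. Nmrk2 and Sirt1 stayed lower and past the threshold under each of the 15 other settings.

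**Figure D2:**
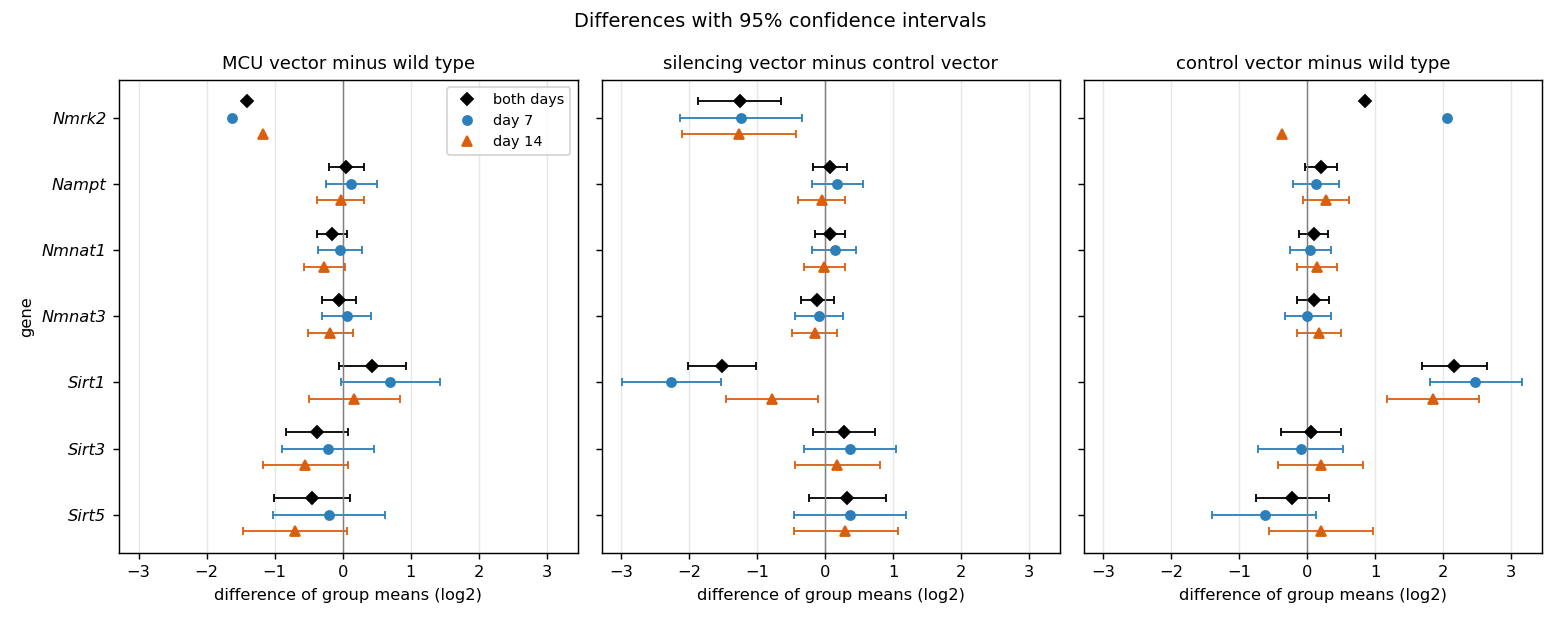
Difference of group means (horizontal axis, log2) for the 7 genes (vertical axis) in 3 comparisons, with 95% confidence intervals from the limma fit. Diamonds average both days, circles are day 7 and triangles day 14. Nmrk2 is drawn without intervals wherever wild type enters, because those fibres chose the gene. With silencing the intervals of Nmrk2 and Sirt1 over both days lie below 0, and those of the other 5 genes span it.

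The control vector and wild type fibres differed at many genes, 27.8% of all tested, of which 36.9% were higher in the control vector (66.9% with median scaling, 23.9% with the percentile over detected probes). Of the 6 members other than Nmrk2, 1 was called higher, Sirt1, and 0 lower, where 10.3% of all genes were called higher. The comparison shares the wild type fibres with that of the MCU vector and the control vector fibres with that of silencing. The levels of Sirt1 in wild type were -1.03, -1.5, -0.81 and -0.94 at day 7 and -0.73, -0.27, -1.25 and -0.93 at day 14. Every control vector fibre was above every wild type fibre, which held for 2.32% of all genes when the days were taken separately. The difference of Sirt1 was 2.47 at day 7 (17.4% of all genes called), 1.85 at day 14 (16% called) and 2.16 over both days (SE 0.23, 95% interval 1.68 to 2.64, limma adjusted p = 5.2e-07), or 4.47-fold. Under the 15 other settings the difference over both days between control vector and wild type ran from 1.44 to 2.32. Silencing vector fibres stood between both: their Sirt1 level was 0.64 above wild type over both days (adjusted p = 0.077), 0.22 at day 7 (adjusted p = 0.74) and 1.07 at day 14 (adjusted p = 0.037, 10.1% of all genes called).

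Nmrk2 in control vector fibres was 2.06 above wild type at day 7, where the groups did not overlap (8.29% of all genes were higher in that way), and differed by -0.38 at day 14, where the ranges overlapped. Averaged over both days the difference was 0.84. The wild type fibres were among those that chose the gene, so these values are a description. The share of detected probes was 52.2% to 59.5% in wild type fibres and 50.6% to 56.5% in control vector fibres. With that share as a covariate the difference of Nmrk2 was 0.73 and the count of all genes called fell from 6490 to 3454. Among markers of other cells, 26 of 43 were measured, and 1 was called higher and 5 lower in the control vector than in wild type. Over all genes 10.3% were called higher and 17.5% lower in this comparison. Of 7 macrophage and myeloid markers 1 was higher and 1 lower, with a median difference of 0.04 and a summed level of 238 to 307 in the control vector and 286 to 343 in wild type, in units of the array's 75th percentile. Of 4 adipocyte markers 2 were lower, with a median of -0.57 and sums of 0.466 to 1.08 and 0.683 to 1.4. The 6 slow fibre markers summed to 2.14 to 43.6 in the control vector and 2.06 to 3.5 in wild type. The part of these markers in the differences of Sirt1 and Nmrk2 was not tested.

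In wild type fibres Nmrk2 was 2.46 higher at day 14 than at day 7. In MCU vector fibres the means were 2.17 ± 0.46 (SD, n = 3) at day 7 and 5.08 ± 0.65 (SD, n = 4) at day 14. In control vector fibres the difference between days was 0.02 (95% interval -0.82 to 0.85) and in silencing vector fibres -0.01 (95% interval -0.91 to 0.89). The days lay on different slides, so day and slide cannot be told apart. Ordered by their means, the 8 groups ran from MCU vector at day 7 through wild type at day 7 (3.8 ± 0.99), silencing vector at day 14 (4.61 ± 0.68) and at day 7 (4.62 ± 0.9), MCU vector at day 14, control vector at day 7 (5.86 ± 0.19) and at day 14 (5.88 ± 0.16) to wild type at day 14 (6.26 ± 0.23). Ranges of neighbours in this order overlapped except between MCU vector and wild type at day 7. Silencing vector fibres differed from wild type in Nmrk2 by 0.82 at day 7 and by -1.64 at day 14. MCU vector fibres differed from control vector fibres by -3.69 at day 7 and by -0.8 at day 14. Both comparisons crossed slides and used fibres that chose the gene, so these values are a description with no test.

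Sirt1 in MCU vector fibres was at 0.97, -0.93 and -1.15 at day 7 and at -0.96, -0.48, -0.68 and -0.38 at day 14. One fibre of day 7 stood far above the rest. The difference from wild type was 0.43 over both days (95% interval -0.06 to 0.93, adjusted p = 0.45) and 0.1 without that fibre. At day 7 it was 0.7, and 0.03 without it. Against the control vector, which was on other slides, Sirt1 in MCU vector fibres was 1.77 lower at day 7 (adjusted p = 0.0015, 14% of all genes called) and 1.68 lower at day 14 (adjusted p = 0.0011, 18.1% called). In the order of group means, the control vector groups, 1.4 ± 0.39 and 1.05 ± 0.31, stood at the top without overlapping silencing vector at day 14 (0.28 ± 0.42), and the ranges of all lower neighbours overlapped.

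Nampt, the enzyme that salvages nicotinamide, was called in none of the 3 main comparisons. Its 30 values lay between 3.63 and 5.04, and the group means between 4.13 ± 0.38 in wild type at day 7 and 4.75 ± 0.29 in the control vector at day 14. The difference was 0.05 for MCU vector against wild type (95% interval -0.2 to 0.31), 0.07 for silencing against control vector (-0.18 to 0.32) and 0.2 for control vector against wild type (-0.04 to 0.44, adjusted p = 0.22). The last passed with median scaling (0.36, adjusted p = 0.035). The control vector fibres were at 4.42, 4.25, 3.91 and 4.44 at day 7 and at 4.47, 4.52, 5.04 and 4.96 at day 14, and this difference of 0.49 did not pass (adjusted p = 0.095).

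Nmnat1, the nuclear enzyme of the last step, lay between 1.6 and 2.47. Its lowest group was MCU vector at day 14, with 1.79, 1.72, 1.85 and 1.86, where all wild type fibres of that day were higher, at 2.17, 2.09, 2.05 and 1.98. That difference of -0.27 did not pass the test (95% interval -0.57 to 0.03, adjusted p = 0.50), and 4.36% of all genes were lower without overlap at that day. Against the control vector of day 14 it was -0.41 (adjusted p = 0.051). Nmnat3, the mitochondrial form, lay between 0.64 and 1.58. Its difference over both days was -0.06 for MCU vector against wild type (95% interval -0.3 to 0.19), -0.12 for silencing against control vector (-0.36 to 0.13) and 0.09 for control vector against wild type (-0.15 to 0.32). The ranges of all neighbouring groups overlapped for Nmnat1 and for Nmnat3.

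Sirt3 and Sirt5, which act on proteins inside mitochondria, had their lowest group mean in MCU vector fibres at day 14. Sirt3 was at 0.05, 0.3, 0.49 and 0.68 there and at 1.27, 0.68, 1.11 and 0.67 in wild type, and the ranges overlapped. The difference over both days was -0.38 (95% interval -0.84 to 0.08, adjusted p = 0.48). With silencing Sirt3 differed by 0.28 (95% interval -0.18 to 0.74), and the highest 2 fibres of all 30, at 1.99 and 1.75, were silencing vector fibres of day 14, beside one of the same group at 0.44. Sirt5 was at -2.4, -2.47, -1.76 and -2.2 in MCU vector fibres of day 14, of which 2 were well above background, and at -1.27, -1.68, -1.19 and -1.89 in wild type. Its difference over both days was -0.45 with the MCU vector (95% interval -1.01 to 0.11, adjusted p = 0.50) and 0.33 with silencing (95% interval -0.23 to 0.9). With the levels of the fast myosins Myh4 and Myh1 as covariates the silencing differences turned to -0.2 for Sirt3 and -0.14 for Sirt5. Neither gene was called in any comparison at either day. A p that misses the threshold does not show that the levels were the same.

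Among the members, Sirt3 and Sirt5 ran most alike over the 30 fibres, with Pearson's r of 0.723. After each group's mean was removed their r was 0.661. By that measure Nampt and Nmnat1 (0.723) and Nmnat3 and Sirt3 (0.673) ran more alike. Nmrk2 and Sirt1 did not run alike within groups: r was 0.309 over all fibres and -0.158 without the group means. Fibres of a group share a slide, so these correlations are descriptions. Out of 15036 genes compared, those most like Nmrk2 were Epdr1 (r = 0.789, Spearman's rho 0.697), Palmd (0.78 and 0.612), Stx3 (0.77 and 0.697), Ppargc1a (0.769 and 0.817) and Slc25a33 (0.753 and 0.659). Ppargc1a encodes a coactivator of mitochondrial genes, and Slc25a33 a mitochondrial carrier of pyrimidine nucleotides. Without the group means r fell to 0.397 for Ppargc1a and -0.175 for Stx3 and was 0.775 for Palmd. Stx3 was very dim at day 7, with means of -5.05 in wild type and -5.3 in MCU vector fibres. Sirt5 was already not well above background on an array where it stood at -2.47. With silencing the difference was -0.94 for Ppargc1a and -0.56 for Slc25a33. With the MCU vector the differences of the 5 lay between -0.51 for Ppargc1a and -0.04 for Epdr1. The genes were picked by their correlation over the same arrays, so these differences are a description with no test.

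The genes most like Sirt1, listed by the same measure after its values had been seen, were Eif1a (r = 0.939), Tubb6 (0.931), Sphk1 (0.926), Jmjd1c (0.922) and Osgin1 (0.92). They encode a translation initiation factor, a tubulin, a sphingosine kinase, a histone demethylase relative and an oxidative stress protein. Their differences with silencing ran from -3.56 for Sphk1 to -1.6 for Eif1a, a direction that the choice by correlation over these arrays fixes. For these genes Spearman's rho with Sirt1 lay between 0.808 for Jmjd1c and 0.888 for Tubb6. Without the group means r fell to between 0.63 for Jmjd1c and 0.8 for Eif1a. Most alike to the mitochondrial sirtuin Sirt3 were the fatty acid oxidation genes Acadvl (0.932) and Acaa2 (0.928), and to Nampt the pyruvate dehydrogenase subunit Pdha1 (0.861).

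**Figure D3:**
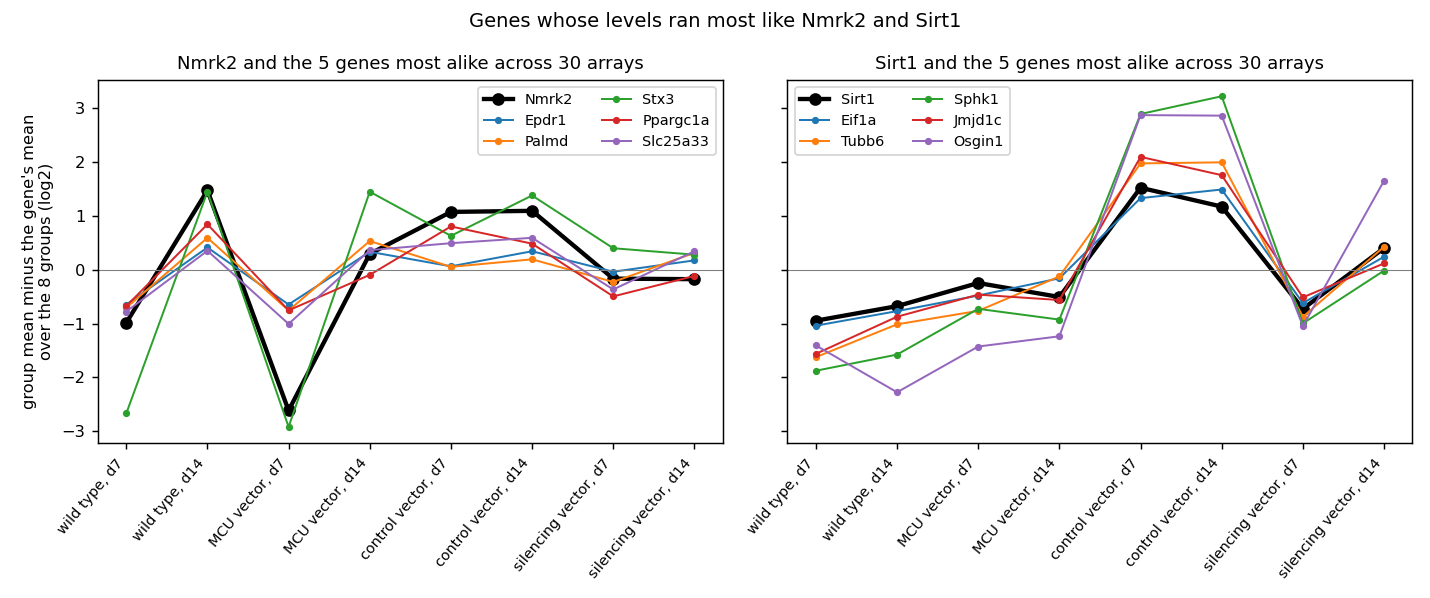
Group mean of each gene minus its own mean over the 8 groups (vertical axis, log2) against the group (horizontal axis), for Nmrk2 and Sirt1 (thick black lines) and the 5 genes most alike to each over 30 arrays. Nmrk2, Palmd, Stx3, Ppargc1a and Slc25a33 are lowest in MCU vector fibres of day 7, where Stx3 is very dim. Epdr1 is equally low there and in wild type fibres of day 7. The Sirt1 set is highest in both control vector groups.

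Other genes that make, use or move NAD were counted in lists. Of 7 other NAD makers 5 were measured, without Nmrk1 and Nmnat2, and 1 was called, with silencing, where 14.1% of all genes were called. Nadk2, the mitochondrial kinase that turns NAD into its phosphate, was 0.55 higher with silencing (SE 0.13, adjusted p = 0.0083), and 0.35 higher with normexp. The difference was 0.96 at day 7 and 0.13 at day 14 (adjusted p = 0.75). Of 9 genes of synthesis from tryptophan 6 were measured. Ido2, an enzyme of the first step, was 0.93 higher with silencing (SE 0.17, adjusted p = 9.8e-04), and 0.45 higher with normexp. The difference was 1.57 at day 7 and 0.3 at day 14 (adjusted p = 0.52), and it changed by -1.27 between days (adjusted p = 0.036). In control vector against wild type Ido2 differed by -0.65 (adjusted p = 0.0048). In that last comparison Afmid was 0.58 higher and Haao differed by -0.25 (adjusted p = 0.0084 and 0.04), the latter kept in 3 of 5 other ways of scaling or background correction. The list medians lay between -0.01 and 0.19, beside -0.04 to 0.04 over all genes.

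All 4 other sirtuins were measured. Sirt4, a mitochondrial member, was 0.36 higher with silencing (adjusted p = 0.04) and Sirt6, a chromatin deacylase, 0.31 higher (adjusted p = 0.03), but neither was called with median scaling (0.23 and 0.19). The nucleolar Sirt7 was 0.52 higher in control vector than in wild type (adjusted p = 0.049, and 0.086 with the percentile over detected probes). Sirt2 was called in none of the 3 comparisons.

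The PARP family, enzymes that spend NAD on ADP-ribosylation, had 14 of 15 members measured. With the MCU vector Parp10 was 1.24 higher over both days (SE 0.25, limma adjusted p = 0.0067), 2.12 at day 7 (adjusted p = 0.001) and 0.36 at day 14 (adjusted p = 0.74). Parp12 and Parp14 passed the filter on dim probes only through MCU vector arrays, so their differences are described without a test. Parp14 was well above background on all 3 MCU vector arrays of day 7 and on 3 of 4 at day 14, but on no wild type array. It was at least 57-fold higher at day 7, taking the dimmest probe well above background on each wild type array as its bound. The same reckoning gave 2.13-fold at day 14. The mean there included an MCU vector array not well above background, so this value is no strict bound. Parp12 was above background on all 3 MCU vector arrays at day 7 and on no wild type array of that day, at least 3.96-fold higher. At day 14 it was above background on 2 wild type arrays and no MCU vector array. Parp10, Parp12 and Parp14 are known as interferon-induced members. Tiparp, a target of the aryl hydrocarbon receptor, fell with silencing by 0.69 (SE 0.16, adjusted p = 0.0062) and was 1.76 higher in control vector than in wild type (SE 0.16, adjusted p = 4.5e-08), without overlap at either day in either comparison. Parp8 was 0.53 higher with silencing (adjusted p = 0.045, kept in 2 of the 5), and Parp3 was 0.65 higher in control vector than in wild type (adjusted p = 0.015).

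Of the 3 NAD hydrolases only Cd38 was measured, and it was not called: its differences were -0.43, 0.38 and -0.54 in the 3 comparisons. Of 7 genes of nicotinamide clearance and precursor handling 4 were measured, and Slc29a1, a nucleoside transporter, was 0.26 higher in control vector than in wild type (adjusted p = 0.04), a call kept in 1 of the 5 other ways. All 13 genes of NAD carriers and NADH shuttles were measured, and none was called with the MCU vector or with silencing. Their medians were -0.14 and 0.31, beside -0.02 and 0.04 over all genes. At an unadjusted p under 0.05 there was 1 lower with the MCU vector, and 1 higher and 2 lower with silencing. The share of all genes at that threshold was not counted, so nothing is read from these counts. Slc25a51, the mitochondrial NAD carrier, was 0.32 higher in control vector than in wild type (adjusted p = 0.027), kept in 2 of the 5. Slc25a13, the dim aspartate and glutamate carrier, was well above background on no control vector array and on 2 and 3 wild type arrays at days 7 and 14. The same reckoning as for Parp14 gave 1.07-fold and 1.11-fold higher in wild type. The wild type means included arrays not well above background, so these values are no strict bounds.

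**Figure D4:**
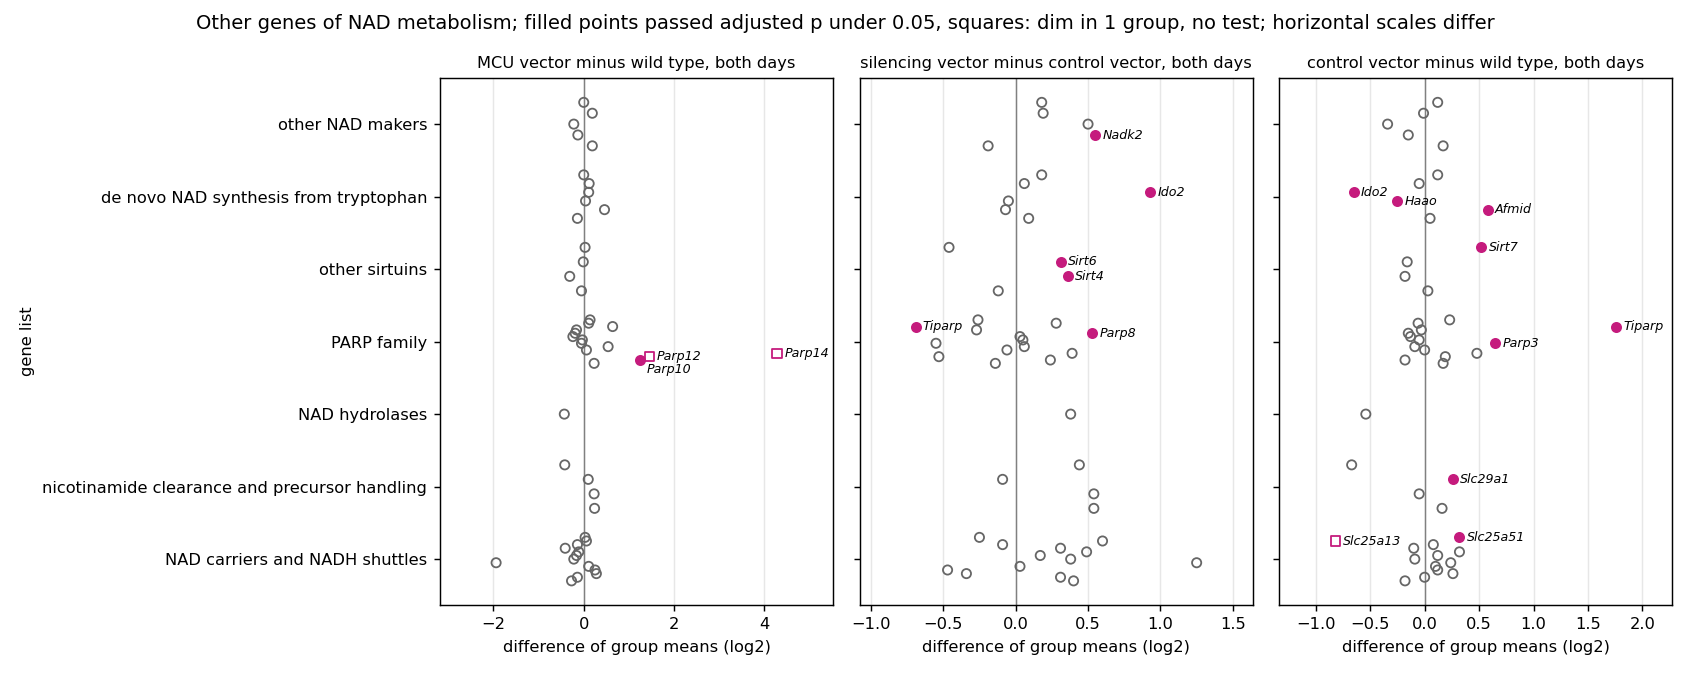
Difference of group means over both days (horizontal axis, log2, with a scale of its own in each panel) for every measured gene of 7 lists (vertical axis) in the 3 main comparisons. Filled and named points passed adjusted p under 0.05. Squares are Parp12, Parp14 and Slc25a13, not well above background in a group compared, whose plotted differences are fitted values, neither bounds nor tests. With the MCU vector the filled gene is Parp10, and with silencing Tiparp is the called gene below 0.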

How the data were processed

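The values used were spot intensities of 30 arrays, which per the file headers the authors deposited as signals background-subtracted by Agilent Feature Extraction 10.7.3.1. The RNA had been amplified and random-primed, per the labels' protocols, so strand was not kept. Spots flagged as outliers were left out, log2 values were averaged over a probe's spots, and the 75th percentile over the 55681 probes of each array subtracted. A probe was kept if 3 or more arrays of any group showed it well above background (33164 probes), and the brightest probe stood for each of 23342 genes. Symbols came from the accession through a RefSeq table (26425 probes), from a current symbol (3988) or a synonym (826), or stayed as in the files (24442). The deposited series table matched the log2 of its own array at r of at least 0.998; its column medians lay between 20.9 and 21, on a linear scale whose normalization is not given in the sources used here.

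One limma 3.58.1 model (R 4.3.3) with 8 group means was fitted over all genes, with Benjamini-Hochberg adjustment and 22 residual degrees of freedom, and calls were adjusted p under 0.05. "Both days" averages the differences of day 7 and day 14. On simulated data of 23342 genes, 83% of log2 changes of 1 and 98% of changes of 2 were recovered for MCU vector against wild type, and 71% and 95% for silencing against control vector. The noise was independent and normal with the fitted spread, without slide or scaling effects, and 100 genes were changed by each size. False calls numbered 8 and 10. Each comparison had its own random draw, so the recovered shares are not compared between them. The members, the pathway and marker lists and the comparisons were chosen with earlier results of these data known. Named genes were the members, Mcu, list genes past the threshold (otherwise up to 2 per list) and the 5 genes with the highest Pearson correlation with Nmrk2, and the genes like other members were added later. Replicate numbers were not taken to pair fibres: over 14 pairs the correlation of deviations ran from -0.175 to 0.186, and 4 were over 0.1. The alternatives were 15 settings and 30 fits without 1 fibre each. The number of arrays limits the precision.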

Additional observations from a re-analysis of the deposited data

Results flagged for a closer look

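Of 42 groups of 4 fibres examined over the members, 1 held a fibre set apart from the rest by the size of the gap against the range of its group, and chance alone gives about 5%. Nmrk2 in wild type fibre 2 of day 14 was at 6.6, and the other 3 lay between 6.09 and 6.17, with the gap making up 0.859 of the range. Groups of 3 were not examined in this way.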

How the results depend on the processing

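Nmrk2 and Sirt1 with silencing, and Sirt1 in control vector against wild type, kept their direction and their call over both days under all 15 settings and without any 1 fibre. Adjusted p for Nmrk2 with silencing ran from 0.003 to 0.014 over settings and from 0.0022 to 0.026 without a fibre, and for Sirt1 from 1.8e-04 to 0.0013 and from 3.2e-04 to 0.0012. In control vector against wild type, median scaling made 2 members called in place of 1, as Nampt passed (0.36). The untested difference of Nmrk2 there ran from 0.73 to 1 over settings and from 0.65 to 1.01 without 1 fibre. The replicate block, with the number of a fibre as a term, changed no member's call and gave 3206 genes called with silencing, against 3292 without it.

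Some differences of members that were not called in that comparison changed sign or reached 0. With silencing, median scaling gave -0.05 for Nampt and -0.06 for Nmnat1, and the levels of Myh4 and Myh1 as covariates gave -0.03 for Nampt, -0.2 for Sirt3 and -0.14 for Sirt5. In control vector against wild type, Sirt3 was -0.03 with the percentile over detected probes, -0.05 with the share of detected probes and -0.02 with the Myh covariates, Nmnat1 was 0 from the series table and Sirt5 0 with normexp. Sirt1 with the MCU vector at day 14 was -0.01 with the share of detected probes. Without 1 fibre, Nampt with the MCU vector ran from -0.03 to 0.12, Nmnat3 from -0.13 to 0.02, Nmnat1 with silencing from -0.01 to 0.12 and Sirt3 in control vector against wild type from -0.03 to 0.16. The cause was not tested.

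Counts over all genes moved more. With the MCU vector 263 genes were called, against 510 with normexp, 536 with the Myh covariates, 1116 with array weights and 171 to 300 without 1 fibre. With silencing 3292 fell to 1612 when only the groups compared were fitted, and in control vector against wild type 6490 fell to 3454 with the share of detected probes. Scaling moved the median of all genes by over 0.1, as given with the silencing comparison, from -0.04 to 0.12 with median scaling in control vector against wild type. Each gene rests on 1 probe, and Sirt5 was not well above background on 2 arrays.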
